A study of Mus musculus with 8 samples.

Results

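Collagen and laminin genes, which encode the chains of the extracellular matrix, were followed through single nucleus RNA-seq of cultured mouse pancreatic islets. Members were all genes of the deposited table whose symbol was Col, a number, the letter a and a number, or Lam, then a, b or c, and a number. The rule took 46 of 17362 genes, 36 collagen and 10 laminin genes. *Col2a1*, *Col6a1*, *Col6a2* and *Lamc3* are among those not analysed here.

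Islets came from wild type (WT) mice and from whole-body knock-in Med14 S983A mice, whose Med14, a subunit of the Mediator complex that joins transcription factors to RNA polymerase II, carries alanine in place of a serine. Islets of each genotype were cultured untreated (CON), with forskolin (FSK), which switches on adenylyl cyclase and so raises cAMP, or with Exendin-4 (Ex-4), an agonist of the GLP-1 receptor, at 10 nM for 16 h. The labels do not give the FSK dose, and the age, sex and strain of the mice are not given in them. The study's text gives 16 h for FSK in islets and lists the Med14 S983A mice as C57BL/6J. About 100 islets were used per preparation, and their nuclei, sorted by DAPI stain, were tagged by combinatorial barcoding, so that all 6 conditions were held in each of 8 sublibraries, which are therefore not replicates.

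Each condition and cell type was 1 pool, giving 54 columns (6 conditions by 9 cell types). A level here is counts per 10000 counts of the pool (CP10K), so a gene that falls and a pool whose other RNA rises cannot be told apart. Without replicates no test could be run. Intervals are exact 95% intervals that cover counting error only, and condition cannot be told apart from the islet preparation or the barcode wells. A ratio was called past the threshold at 1.5-fold, and only where the columns compared held at least 50 counts of the gene together. The share of all genes past the same threshold is printed beside each count of members.

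Pools were unequal in depth. Beta pools held 1915006 to 3094377 counts, alpha pools 269394 to 810127, delta pools 362410 to 631433, endothelial pools 55536 to 159305 and muscle pools 25695 to 87008, whereas the pools labelled neurons and ductal cells began at 4044 and 1522 counts. At least 1 condition had no count of a gene in any cell type for 6084 genes. Among the members this was so for 25. In ranges over conditions and in ratios, a 0 of these members in such a condition was left out. Levels with the 6 conditions summed still include the total counts of such conditions, so they run low for these 25 members. The highest cell type was taken from the summed levels. Defining markers were highest in their own pools for 8 of 8 endothelial, 6 of 6 macrophage, 3 of 3 delta, 6 of 7 beta and 3 of 5 alpha markers. In the muscle pools 5 of 6 smooth muscle and pericyte markers but 0 of 2 striated muscle markers were highest. Among those 5, *Pdgfrb*, *Rgs5* and *Cspg4* had no count in WT. Only 1 of 5 fibroblast and stellate markers was listed, so these pools could not be checked for such cells. The label of the neuron pools was not borne out, since 0 of 5 neuron markers were highest there while *Ins2* stood at 6.53 CP10K against 12.3 in beta nuclei, and they are called nuclei labelled neurons below.

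Collagen chains wind around each other into rope-like helices, and laminins are cross-shaped molecules built from an alpha, a beta and a gamma chain. Collagen IV and laminin form the sheets of the basement membrane, the thin layer on which epithelial and endothelial cells rest, while fibrillar collagens form the fibres of connective tissue. Islet capillaries carry such a layer, and beta cells touch it through integrins and other receptors. The members together held 26447 counts, 0.112% of all counts. Of the 46 members, 30 had at least 50 counts over all columns and 21 had at least 200. The remaining 16 had under 50 counts and are given only by that number, except where named.

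Among the 30 members with at least 50 counts, the highest level, with the 6 conditions summed, lay in muscle nuclei for 8, in nuclei labelled neurons for 8, in endothelial nuclei for 7, in ductal nuclei for 4, and in beta, alpha and delta nuclei for 1 each. No member was highest in PP or macrophage nuclei. For 24 of the 30 the range over conditions in the highest cell type overlapped that in the next one, so that the order of neighbours is mostly loose. The 6 without overlap were *Col13a1*, *Col28a1*, *Col5a3*, *Col3a1*, *Col8a1* and *Col1a2*. Of these only *Col28a1* was listed in all 6 conditions. The ranges rest on 4 conditions for *Col13a1*, 3 for *Col8a1* and 2 for *Col5a3*, *Col3a1* and *Col1a2*, and fewer conditions make a range narrower by construction. *Col28a1* and *Col8a1* were highest in nuclei labelled neurons. The share of all genes without overlap was not computed. Without the ductal pools and the nuclei labelled neurons, 18 of the 30 members kept their highest cell type, the loss being the members that had been highest in those pools.

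**Figure D1:**
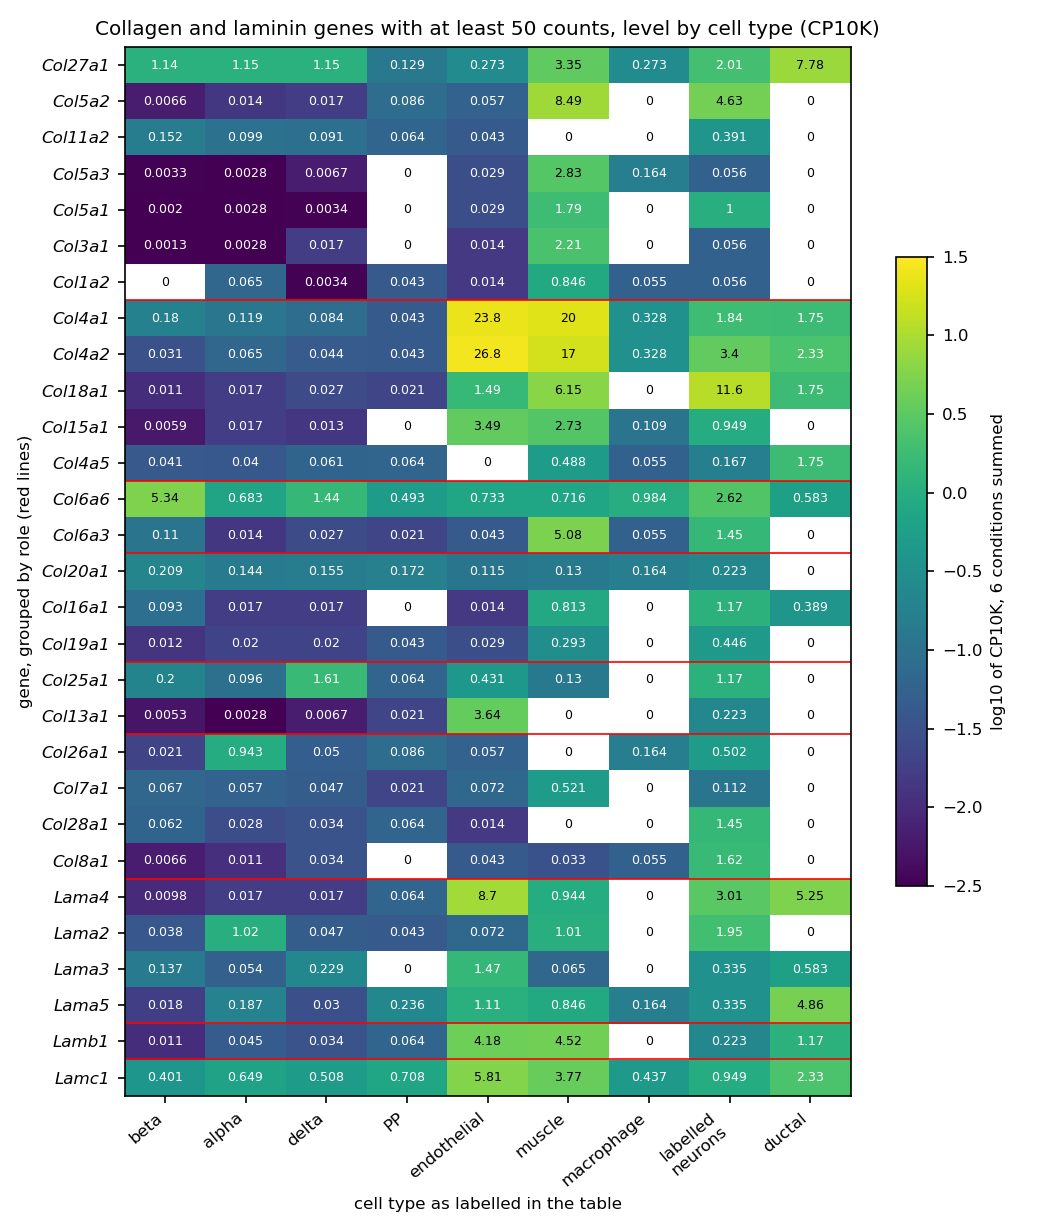
Level of 29 collagen and laminin genes with at least 50 counts (rows, grouped by role) in the 9 cell types (columns), as CP10K with the 6 conditions summed, coloured on a log10 scale, with white for no counts. The totals include conditions in which a gene was not listed. Rows are to be read across cell types, since levels of different genes are not scaled by length, and the bright cells of *Col4a1* and *Col4a2* lie in endothelial and muscle nuclei and those of *Col6a6* in beta nuclei.

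Collagen IV, the network former of basement membranes, was led by *Col4a1* and *Col4a2*, whose chains assemble with each other. *Col4a1* stood at 23.8 CP10K in endothelial nuclei (interval 22.7 to 25.0) and at 19.98 in muscle nuclei (18.4 to 21.6), and *Col4a2* at 26.8 and 17.0 CP10K. The endothelial range over conditions, 14.4 to 34.4 for *Col4a1*, overlapped the muscle range, 8.08 to 34.2. Scaled by the span of the gene, the endothelial levels of the pair were alike, 20.8 CP10K per 100 kb for *Col4a1* and 19.6 for *Col4a2*. The genes lie head to head on chromosome 8 of GRCm39, *Col4a1* at 11248423 to 11362826 on the minus strand and *Col4a2* at 11362471 to 11499287 on the plus strand. Their RefSeq start sites are 21 bases apart, so the 300-base promoter windows share 78 bases. The windows are shown because the pair shares this stretch of DNA and yet was not counted in 1 ratio in every cell type. Each is given 5′ to 3′ on its gene's strand with the shared bases in capitals, *Col4a1* at chr8:11362777-11363076 and *Col4a2* at chr8:11362555-11362854 (sequence from RefSeq, positions by exact match to GRCm39).
Col4a1: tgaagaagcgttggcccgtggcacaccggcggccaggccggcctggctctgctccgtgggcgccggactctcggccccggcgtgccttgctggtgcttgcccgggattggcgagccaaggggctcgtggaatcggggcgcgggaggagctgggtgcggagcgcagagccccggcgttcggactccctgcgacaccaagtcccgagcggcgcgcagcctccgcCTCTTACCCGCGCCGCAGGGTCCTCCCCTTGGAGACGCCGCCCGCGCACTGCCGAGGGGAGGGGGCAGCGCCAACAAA
Col4a2: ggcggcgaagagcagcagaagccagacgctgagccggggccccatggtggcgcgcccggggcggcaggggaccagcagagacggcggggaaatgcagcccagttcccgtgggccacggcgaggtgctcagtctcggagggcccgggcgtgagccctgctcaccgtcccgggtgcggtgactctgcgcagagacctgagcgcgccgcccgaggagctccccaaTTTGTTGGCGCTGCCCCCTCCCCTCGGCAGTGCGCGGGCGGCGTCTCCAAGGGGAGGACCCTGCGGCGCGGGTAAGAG

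*Col4a1* took 47.1% of the counts of the pair in endothelial nuclei (1655 counts against 1862, Clopper-Pearson interval 45.4 to 48.7) and 54.1% in muscle nuclei (51.1 to 57.0). In beta nuclei the pair was far scarcer and *Col4a1* took 85.4% (274 counts against 47, interval 81.0 to 89.0). The share was 46.1% to 48.3% in the 6 endothelial columns and 69.6% to 100% in the 6 beta columns, without overlap. In alpha and delta nuclei it was 64.6% and 65.8%, with intervals of 51.8 to 76.1 and 48.6 to 80.4. The summed level of the 8 endothelial markers in beta columns was 0.0788% to 0.531% of that in the endothelial columns of the same condition. In beta columns *Col4a1* stood at 0.113% to 1.86% of its endothelial level and *Col4a2* at 0% to 0.470%. The 5 muscle markers in beta columns stood at 0.172% to 0.758% of their muscle level. The part that endothelial or muscle RNA in the beta pools had in the *Col4a1* share was not tested. The reads of the overlapping 5′ ends cannot be assigned without strand, and whether counting used strand is not stated in the sources used here.

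**Figure D2:**
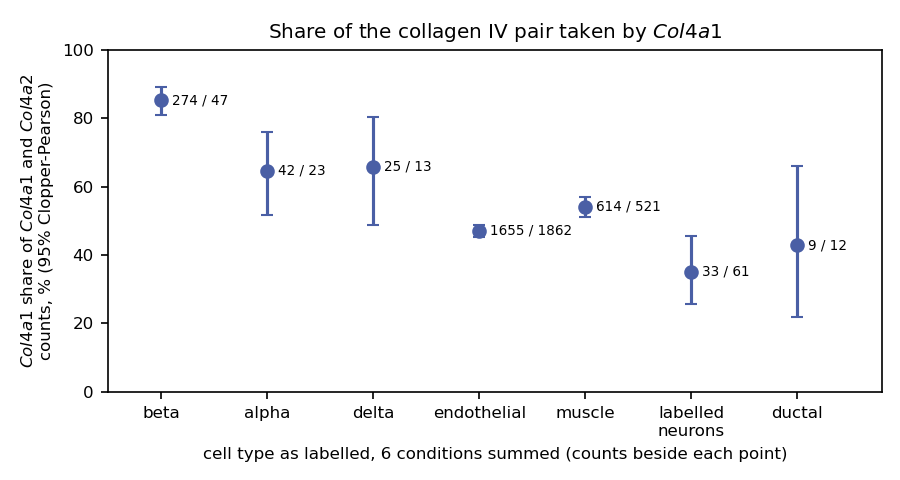
Share of the counts of *Col4a1* and *Col4a2* taken by *Col4a1* (vertical axis, percent) in each cell type with at least 20 counts of the pair, 6 conditions summed, with exact 95% Clopper-Pearson intervals and the counts of the genes beside each point. Beta nuclei sit at 85.4%, above the intervals of endothelial and muscle nuclei.

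The other collagen IV genes were thinly counted. *Col4a5* had 126 counts, of which 63 were in beta nuclei against 12 of its head-to-head neighbour *Col4a6*, a share of 84.0% (73.7 to 91.4). *Col4a3* and *Col4a4*, the third such pair, had 22 and 25 counts in all columns. Of the collagens that sit at the outer face of basement membranes, *Col15a1* (collagen XV) stood at 3.49 CP10K in endothelial nuclei and 2.73 in muscle nuclei, where the ranges of the conditions listing it overlapped. *Col18a1*, which encodes collagen XVIII and its endostatin fragment, stood at 6.15 CP10K in muscle nuclei, 1.49 in endothelial nuclei and 11.6 in nuclei labelled neurons. That last value came mainly from the FSK columns, 61.8 CP10K from 25 counts in WT and 60.7 from 123 counts in Med14 S983A, against 1.93 to 8.65 in the other 4. The WT FSK column of these nuclei was their smallest, with 4044 counts, and the highest cell type of *Col18a1* became muscle when the Med14 S983A FSK columns were left out.

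Laminin chains were led by those of the laminin made by endothelium, alpha 4, beta 1 and gamma 1. *Lama4* stood at 8.70 CP10K in endothelial nuclei (8.02 to 9.42), where 81.3% of its counts lay, *Lamc1* at 5.81 (5.25 to 6.40) and *Lamb1* at 4.18 (3.72 to 4.69). Per 100 kb of gene span these endothelial levels were close together, 5.53 CP10K for *Lama4*, 5.09 for *Lamc1* and 6.47 for *Lamb1*. In muscle nuclei *Lamb1* was as high, 4.52 CP10K, *Lamc1* was at 3.77 and *Lama4* only at 0.944. *Lamc1* was also the broadest laminin gene, with counts in 52 of 54 columns and 0.401 CP10K in beta, 0.649 in alpha and 0.508 in delta nuclei.

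The remaining laminin alpha chains each had another pattern. *Lama2*, the alpha chain of muscle and nerve basement membranes, had 71.3% of its counts in alpha nuclei, at 1.02 CP10K, beside 1.01 in muscle nuclei, 0.0381 in beta nuclei and 1.95 in nuclei labelled neurons. *Lama3*, an alpha chain of epithelial laminins, stood at 1.47 CP10K in endothelial nuclei and at 0.137 and 0.229 in beta and delta nuclei, where nearly all its counts lay in the FSK columns (below). *Lama5*, the alpha chain of mature vessel and epithelial membranes, stood at 4.86 CP10K in ductal nuclei from 25 counts (3.15 to 7.17), 1.11 in endothelial and 0.187 in alpha nuclei.

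The most counted member was *Col6a6*, an alpha chain of collagen VI, the beaded filament collagen that lies beside basement membranes. It held 8960 counts, 90.7% of them in beta nuclei, where it stood at 5.34 CP10K (5.22 to 5.45), and it made up 68.9% of all collagen counts there. Its level was 1.44 CP10K in delta, 0.683 in alpha and 0.733 in endothelial nuclei. These are 26.9%, 12.8% and 13.7% of its beta level, and in the same pools 6 beta markers stood at a median of 16.3%, 12.1% and 16.7% of theirs. In nuclei labelled neurons *Col6a6* stood at 2.62 CP10K. Outside the beta pools the part that RNA from beta cells had in these levels was not tested. *Col6a3*, another collagen VI chain, was highest in muscle nuclei at 5.08 CP10K and stood at 0.110 in beta nuclei.

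Fibrillar collagens were led by *Col27a1*, a chain of a short fibrillar collagen best known from cartilage. It stood at 1.14 CP10K in beta, 1.15 in alpha and 1.15 in delta nuclei, lower in PP nuclei (0.129 from 6 counts), and higher in muscle (3.35) and ductal nuclei (7.78 from 40 counts). *Col5a2*, a chain of the collagen that starts type I fibrils, stood at 8.49 CP10K in muscle nuclei and at 0.00657 in beta nuclei. *Col3a1*, *Col5a1*, *Col5a3* and *Col1a2* were likewise highest in muscle nuclei, but were listed in Med14 S983A CON and Med14 S983A FSK and in no other condition, with 55 to 101 counts each. In those conditions *Col5a3* stood at 5.04 and 6.44 CP10K in muscle nuclei and *Col3a1* at 3.74 and 5.17. *Col11a2* had 75.6% of its 307 counts in beta nuclei, whose pools held 64.5% of all counts. It stood at 0.152 CP10K there, beside 0.0992 in alpha and 0.0908 in delta nuclei. Its highest level was 0.391 CP10K in nuclei labelled neurons, with a range of 0 to 0.580 over conditions that overlapped the beta range.

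The transmembrane collagens split between cell types. With the conditions summed, *Col25a1* was highest in delta nuclei, at 1.61 CP10K (1.47 to 1.76), against 0.2002 in beta and 0.0963 in alpha nuclei. Its delta range over conditions, 0.533 to 4.12, overlapped that of nuclei labelled neurons, 0 to 5.56. In WT CON alone, and without the Med14 S983A FSK columns, it was highest in nuclei labelled neurons. *Col13a1* was highest in endothelial nuclei, at 3.64 CP10K with 94.1% of its counts there. *Col26a1*, a collagen with an EMI domain, stood at 0.943 CP10K in alpha nuclei with 83.2% of its counts there. *Col20a1*, the most counted of the fibril-associated collagens, had 71.9% of its 442 counts in beta nuclei, whose pools held 64.5% of all counts. Its beta level was 0.209 CP10K, and it was among the steadiest members, 0.182 to 0.239 over the 6 beta columns. In alpha, delta, PP and macrophage nuclei it stood at 69.2%, 74.1%, 82.2% and 78.5% of that level, so it was not particular to beta nuclei. In nuclei labelled neurons it stood at 0.223 CP10K, its highest level, with a range of 0 to 0.580 over conditions that overlapped the beta range. *Col16a1*, of the same class, stood at 1.17 CP10K in nuclei labelled neurons, 0.813 in muscle and 0.0926 in beta nuclei.

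The first comparison asked how the members differ between FSK and CON, and was made within each genotype, so that the WT and Med14 S983A ratios share no column. In beta nuclei 8 members could be compared in both genotypes, and 5 (62.5%) were past 1.5-fold in the same direction in both, against 20.9% of the 7886 genes compared. *Lama3*, *Col27a1* and *Col25a1* were higher with FSK (6.4% of genes were), *Col6a6* and *Col4a1* were lower (14.5% of genes were), while *Col20a1* and *Lamc1* were among those not past the threshold in both. Taken singly, 6 of 9 members were past it in WT, against 33.7% of 8457 genes, and 7 of 9 in Med14 S983A, against 52.1% of 8260 genes. The median log2 ratio over members compared was 0.58 in WT and -0.14 in Med14 S983A, beside -0.23 and -0.04 over all genes.

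*Col6a6* in beta nuclei stood, in CON, FSK and Ex-4, at 7.07, 3.71 and 6.21 CP10K in WT and at 6.42, 3.14 and 5.43 in Med14 S983A. Both FSK columns lay below the other 4. The ratio of FSK to CON was 0.525 in WT (interval 0.488 to 0.564) and 0.489 in Med14 S983A (0.446 to 0.537). At its 3′ end the gene overlaps *Pik3r4*, which stood at 0.269 to 0.423 CP10K in the beta columns.

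*Col27a1* in beta nuclei stood, in CON, FSK and Ex-4, at 0.342, 1.87 and 0.721 CP10K in WT and at 0.831, 2.10 and 0.992 in Med14 S983A. Again the FSK columns stood apart, here above the others. FSK was 5.48-fold over CON in WT (4.44 to 6.83) and 2.53-fold in Med14 S983A (2.11 to 3.04). In delta nuclei the same gene went the other way, from 1.13 to 0.351 CP10K in WT (ratio 0.310, 0.159 to 0.572) and from 1.71 to 0.618 in Med14 S983A (0.361, 0.242 to 0.528). In alpha nuclei it stood between 0.954 and 1.28 CP10K in all 6 columns.

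*Col25a1* in beta nuclei stood, in CON, FSK and Ex-4, at 0.0730, 0.320 and 0.0805 CP10K in WT and at 0.0987, 0.538 and 0.0888 in Med14 S983A. Its FSK to CON ratio was 4.38 in WT (2.74 to 7.31) and 5.46 in Med14 S983A (3.35 to 9.37). In delta nuclei, where its summed level is highest, it went from 0.966 to 4.12 CP10K with FSK in WT (4.26-fold, 2.95 to 6.32) and from 0.706 to 2.71 in Med14 S983A (3.83-fold, 2.704 to 5.555). The delta hormone gene *Sst* went the other way in the same beta columns, from 0.0299 to 0.0129 CP10K in WT and from 0.130 to 0.0521 in Med14 S983A. The part that delta RNA in the beta pools had in the *Col25a1* difference was not tested.

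*Lama3* in beta nuclei was at or near the floor without FSK, with 2 counts in WT CON, 6 in WT Ex-4, 5 in Med14 S983A CON and 7 in Med14 S983A Ex-4. With FSK it had 91 counts in WT (0.294 CP10K) and 97 in Med14 S983A (0.421). The FSK columns were the only beta columns above 0.0366 CP10K. The ratio to CON was 44.3 in WT (11.9 to 371) and 16.2 in Med14 S983A (6.72 to 51.1). In delta nuclei the counts were 1 and 23 in WT CON and WT FSK and 2 and 37 in Med14 S983A, too few for a call. In endothelial nuclei *Lama3* stood at 1.31 CP10K in WT CON and 1.61 in WT FSK, and at 2.13 and 1.11 in Med14 S983A.

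*Col4a1* in beta nuclei was lower with FSK, 0.0388 CP10K against 0.173 in WT (ratio 0.225, 0.109 to 0.426) and 0.0695 against 0.254 in Med14 S983A (0.273, 0.145 to 0.488). The summed endothelial markers in these beta columns stood at 0.0905 CP10K with FSK and 0.199 in CON in WT, and at 0.287 and 0.322 in Med14 S983A. The markers *Cdh5*, *Kdr* and *Plvap* had no count in any cell type of WT FSK, so that sum is over fewer genes than in WT CON. The part of endothelial RNA in the *Col4a1* difference was not tested. *Col11a2* was lower with FSK in Med14 S983A, at 0.0260 against 0.327 CP10K (ratio 0.0796, 0.0282 to 0.183), and in WT had 6 counts with FSK and 25 in CON, under the minimum for a ratio. *Col6a3* stood at 0.0432 CP10K in WT CON and 0.197 in WT FSK (4.57-fold, 2.48 to 9.06), and at 0.0571 and 0.165 in Med14 S983A, where its 49 counts missed the minimum.

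**Figure D3:**
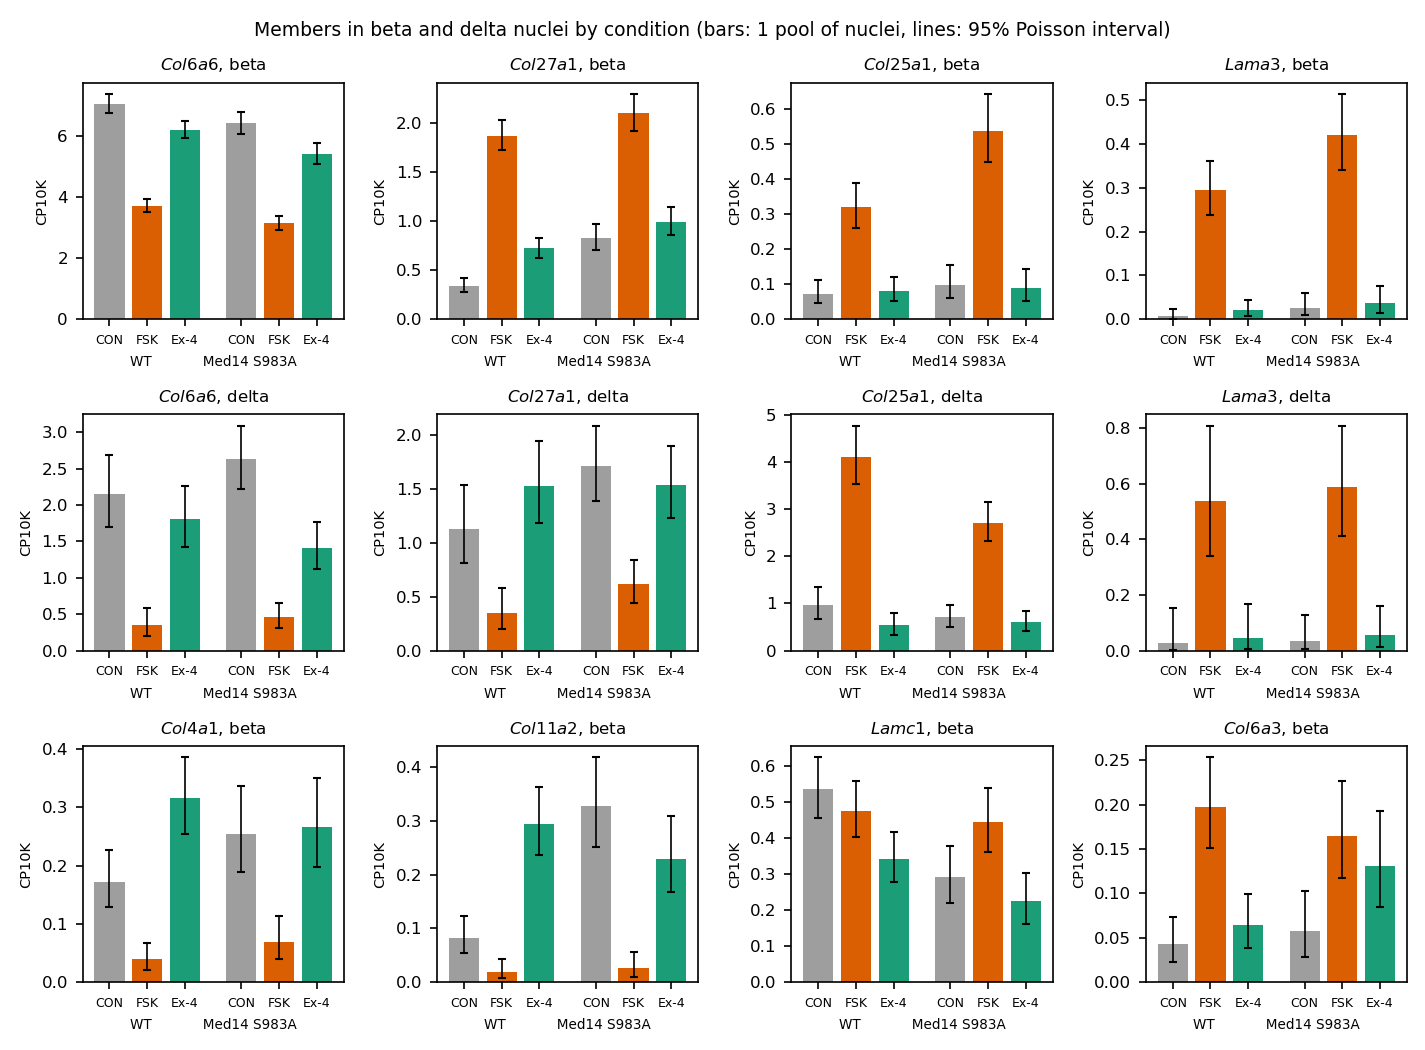
Level in CP10K (vertical axes, each from 0) of members in beta and delta nuclei, with 1 bar for each condition (grey CON, orange FSK, green Ex-4, WT on the left and Med14 S983A on the right of each panel) and exact 95% Poisson intervals as lines. *Col27a1* is above its CON bars with FSK in beta nuclei and below them in delta nuclei, while *Col6a6* is below and *Col25a1* and *Lama3* are above in both cell types.

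Promoters of these genes were compared because FSK acts through cAMP, whose response element is the palindrome TGACGTCA. RefSeq windows of 300 bases around the start were found for 33 of the 46 members, in 35 windows. *Lama3*, which had the highest FSK to CON ratios of the members in beta nuclei, had no window and was not searched. TGACGTCA, which reads alike on both strands, stood in 1 of these members, *Col24a1*, and in 1.79% of all 32851 windows. Its 5-base core TGACG, searched on both strands and held by every TGACGTCA, stood in 6 members and 20.8% of all windows, and TATAAA in 3 members and 13.6% of all windows. The windows of *Col6a6* (chr9:105705235-105705534, minus strand), lower with FSK, and of *Col27a1* (chr4:63133399-63133698, plus strand), higher with FSK, are shown for contrast and hold none of the motifs in these letters. The window of *Col25a1*, higher with FSK and not shown, holds none either. It begins at 129974244, inside the gene span, which starts at 129925150 on the same strand. The window of *Col11a2* (chr17:34257862-34258161, plus strand), lower with FSK in Med14 S983A and higher with Ex-4 in WT, holds TGACG on the opposite strand and TATAAA, both in capitals. Positions are of GRCm39, found by exact match.
Col6a6: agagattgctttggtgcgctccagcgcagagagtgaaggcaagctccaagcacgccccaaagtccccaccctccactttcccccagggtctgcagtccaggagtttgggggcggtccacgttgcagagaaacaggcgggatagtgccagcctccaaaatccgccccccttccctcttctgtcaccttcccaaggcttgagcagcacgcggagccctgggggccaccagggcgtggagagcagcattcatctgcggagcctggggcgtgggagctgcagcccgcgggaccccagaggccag
Col27a1: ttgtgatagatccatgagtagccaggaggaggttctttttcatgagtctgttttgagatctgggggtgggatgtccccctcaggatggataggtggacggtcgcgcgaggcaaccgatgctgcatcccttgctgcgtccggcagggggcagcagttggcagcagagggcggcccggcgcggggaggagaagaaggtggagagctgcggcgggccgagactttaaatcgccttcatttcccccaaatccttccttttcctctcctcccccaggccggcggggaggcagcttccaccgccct
Col11a2: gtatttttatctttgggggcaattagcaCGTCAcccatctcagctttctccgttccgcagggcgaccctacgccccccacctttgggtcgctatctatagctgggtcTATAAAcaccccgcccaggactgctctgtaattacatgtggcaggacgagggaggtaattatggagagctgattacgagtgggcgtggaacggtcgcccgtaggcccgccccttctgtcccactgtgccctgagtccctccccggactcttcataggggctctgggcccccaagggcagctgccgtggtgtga

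In alpha nuclei 3 of 5 members were past 1.5-fold in both genotypes with FSK, all of them lower, *Lama2*, *Col26a1* and *Col6a6*, where 1.76% of 2780 genes were lower in both and 7.19% were past the threshold either way. *Lamc1* and *Col27a1* were not past it in both. The median log2 ratio over the 5 members was -1.60 in WT and -0.72 in Med14 S983A, beside -0.03 and 0.10 over all genes.

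*Lama2* in alpha nuclei stood, in CON, FSK and Ex-4, at 3.55, 0.260 and 0.975 CP10K in WT and at 0.691, 0.420 and 0.907 in Med14 S983A. The WT CON column stood alone above the other 5. The FSK to CON ratio was 0.0731 in WT (0.0289 to 0.154) and 0.607 in Med14 S983A (0.383 to 0.9504). *Col26a1* had the same column highest, with 1.91, 0.631 and 1.13 CP10K in WT and 0.852, 0.433 and 1.03 in Med14 S983A. Its FSK to CON ratios were 0.331 (0.184 to 0.563) and 0.508 (0.327 to 0.777). The summed alpha markers *Gcg*, *Irx2* and *Ttr* in these columns were 91.0, 123 and 36.8 CP10K in WT and 37.6, 99.6 and 35.8 in Med14 S983A, in the order CON, FSK, Ex-4.

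*Col6a6* in alpha nuclei stood at 1.03 CP10K in WT CON and 0.260 in WT FSK (ratio 0.253, 0.0962 to 0.568), and at 0.815 and 0.267 in Med14 S983A (0.328, 0.191 to 0.543). These levels were 7.004% and 8.502% of the beta level with FSK, against 14.5% and 12.7% in CON, while *Ins2* in alpha nuclei was at 13.5% and 10.2% of its beta level with FSK and 10.54% and 11.53% in CON.

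**Figure D4:**
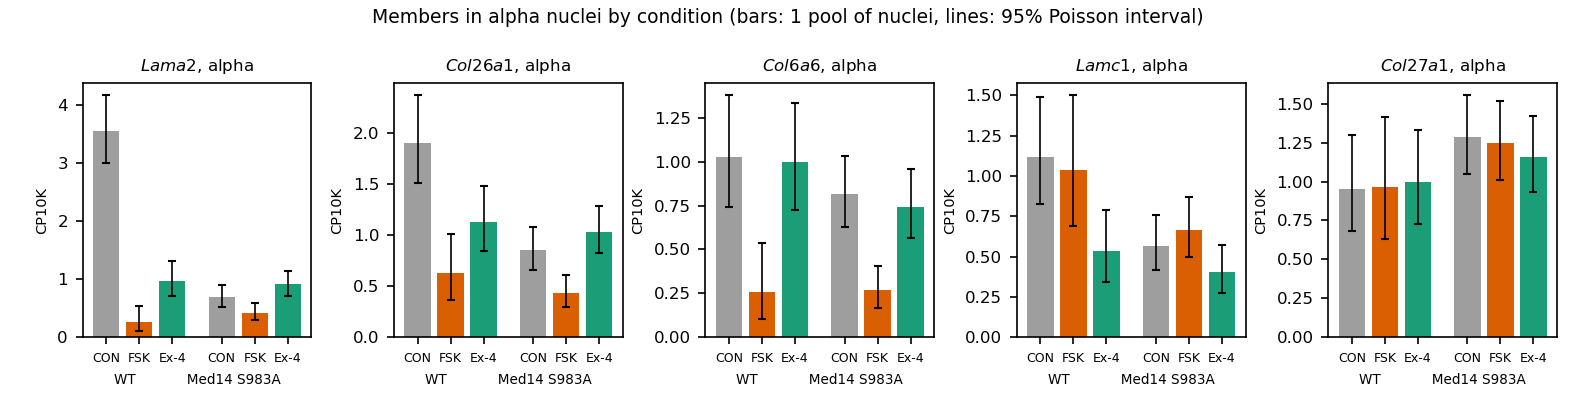
Level in CP10K (vertical axes, each from 0) of 5 members in alpha nuclei, with 1 bar for each condition (grey CON, orange FSK, green Ex-4, WT on the left and Med14 S983A on the right) and exact 95% Poisson intervals as lines. The WT CON bar of *Lama2*, 3.55, stands above all others, and *Col27a1* is nearly level.

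In delta nuclei all 3 members that could be compared were past 1.5-fold in both genotypes, *Col25a1* higher and *Col27a1* and *Col6a6* lower, where 20.1% of 2983 genes were past it. The values of *Col25a1* and *Col27a1* are given above. *Col6a6* in delta nuclei stood at 2.15 CP10K in WT CON and 0.351 in WT FSK (ratio 0.163, 0.0871 to 0.286), and at 2.63 and 0.459 in Med14 S983A (0.175, 0.113 to 0.261). *Ins2* in the same delta columns stood at 1.82 and 0.468 CP10K in WT and at 2.28 and 0.760 in Med14 S983A. The part that beta RNA in the delta pools had in the *Col6a6* difference was not tested.

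The comparison of Ex-4 with CON asked the same of GLP-1 receptor activation. In beta nuclei of WT 5 of 8 members were past 1.5-fold, against 38.6% of 9448 genes, with *Col11a2*, *Col4a1*, *Col16a1* and *Col27a1* higher and *Lamc1* lower. In Med14 S983A 1 of 7 members was past it, against 5.8% of 8204 genes. The median log2 ratio over members was 0.41 in WT and -0.35 in Med14 S983A, beside 0.14 and -0.04 over all genes. The difference between the genotypes was not tested.

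*Col11a2* in beta nuclei stood at 0.0830 CP10K in WT CON and 0.295 in WT Ex-4 (3.56-fold, 2.26 to 5.79), and at 0.327 and 0.230 in Med14 S983A CON and Ex-4. The WT CON level was thus the lowest of these 4. *Col27a1* too was lowest in WT CON, and its WT Ex-4 to CON ratio was 2.11 (1.66 to 2.69). *Col4a1* stood at 0.173 CP10K in WT CON and 0.315 in WT Ex-4 (1.83-fold, 1.29 to 2.61), and at 0.254 and 0.266 in Med14 S983A. *Col16a1* was 1.97-fold higher with Ex-4 in WT from 39 and 20 counts (1.12 to 3.57). *Lamc1* stood, in CON, FSK and Ex-4, at 0.534, 0.475 and 0.342 CP10K in WT and at 0.291, 0.443 and 0.225 in Med14 S983A. Its Ex-4 to CON ratio in WT was 0.640 (0.495 to 0.826).

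In alpha nuclei 3 of 5 members were lower with Ex-4 in WT, *Lama2* (ratio 0.274, 0.191 to 0.386), *Col26a1* (0.592, 0.408 to 0.852) and *Lamc1* (0.474, 0.277 to 0.792), against 26.1% of 3513 genes lower and 43.6% past the threshold either way. No member of 5 was past it in Med14 S983A, where 7.21% of genes were. In delta nuclei 1 of 3 members was past it in each genotype, *Col25a1* lower in WT (0.552, 0.311 to 0.960) and *Col6a6* lower in Med14 S983A (0.537, 0.403 to 0.710), against 38.8% and 7.98% of genes.

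The genotypes were compared in CON. This comparison uses the same WT CON columns as the WT Ex-4 and WT FSK ratios, so the 3 sets of values are not independent. In beta nuclei 4 of 7 members were past 1.5-fold in Med14 S983A against WT, where 46.8% of 8748 genes were, a share close to that of the members. Among them *Col11a2* was 3.94-fold higher (2.44 to 6.54), *Col27a1* was 2.43-fold higher (1.89 to 3.14) and *Lamc1* was lower (ratio 0.544, 0.394 to 0.742). In alpha nuclei 3 of 5 members were lower, against 28.5% of 4449 genes lower and 48.4% past the threshold either way. They were *Lama2* (ratio 0.195, 0.140 to 0.266), *Col26a1* (0.446, 0.319 to 0.624) and *Lamc1* (0.507, 0.330 to 0.777). In delta nuclei *Col27a1* was 1.51-fold higher (1.04 to 2.24) and *Lamc1* was lower (0.433, 0.237 to 0.779), 2 of 4 members against 48% of 3492 genes.

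*Lamc1* was thus lower in Med14 S983A CON than in WT CON in beta, alpha, delta and endothelial nuclei. In PP nuclei it stood at 0.321 CP10K in WT CON and 0.861 in Med14 S983A CON, from 2 and 11 counts, too few for a ratio. With FSK the beta levels of the genotypes were closer, 0.443 CP10K in Med14 S983A and 0.475 in WT. Within a treatment, beta members past 1.5-fold between the genotypes were 1 of 8 with FSK, *Col25a1* being higher in Med14 S983A, against 13.2% of genes, and 2 of 8 with Ex-4, *Col7a1* being higher and *Lamc1* lower, against 9.56% of genes. In delta nuclei with FSK *Col25a1* was past 1.5-fold the other way, at 2.71 CP10K in Med14 S983A and 4.12 in WT.

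In endothelial and muscle nuclei counts were summed over the 3 treatments for the genotypes. Of 9 members compared in endothelial nuclei, *Lamc1* and *Lama4* were past 1.5-fold, both lower in Med14 S983A, against 16.3% of 2752 genes lower and 30.7% past it either way. *Lamc1* stood at 4.43 CP10K in Med14 S983A and 8.41 in WT (ratio 0.527, 0.431 to 0.644), and *Lama4* at 7.20 and 11.5 (0.624, 0.530 to 0.735). *Col4a1* and *Col4a2* were lower by less, at ratios of 0.705 (0.639 to 0.778) and 0.751 (0.684 to 0.824), and *Lamb1* at 0.671 (0.529 to 0.853). The median log2 ratio of all genes was -0.08.

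The columns behind these sums differed by treatment. *Lama4* in endothelial nuclei stood, in CON, FSK and Ex-4, at 11.3, 11.4 and 12.2 CP10K in WT and at 5.02, 10.6 and 6.26 in Med14 S983A, so the FSK column of Med14 S983A was near the WT columns and the other 2 were below them. *Col4a1* stood at 27.6, 34.4 and 28.1 CP10K in the WT columns and at 20.1, 28.2 and 14.4 in those of Med14 S983A. *Lamc1* stood at 8.99, 7.88 and 7.74 CP10K in WT and at 4.46, 5.68 and 3.23 in Med14 S983A, where all 3 columns were below all WT columns. The summed level of the 8 endothelial markers went from 144, 115 and 138 CP10K in WT to 97.5, 145 and 70.8 in Med14 S983A, and 6 beta markers stood at 16.2%, 6.77% and 4.22% of their beta level in WT and at 15.2%, 12.9% and 26.1% in Med14 S983A. *Cdh5* and *Kdr* had no count in any cell type of WT FSK, and *Plvap* none in WT FSK or with Ex-4 in either genotype, so the endothelial sums are not over the same genes. Their part in the differences was not tested.

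With FSK, both genotypes summed, 1 of 8 members was past 1.5-fold in endothelial nuclei, *Col15a1*, which was lower (ratio 0.660, 0.478 to 0.903), against 8.29% of 1967 genes lower and 19.8% past it either way. *Col15a1* stood at 3.92 CP10K in WT CON and 3.86 in WT FSK, and at 4.90 in Med14 S983A CON and 2.56 in Med14 S983A FSK. With Ex-4 none of 8 was past the threshold, against 21.4% of 1971 genes. *Col13a1*, listed in WT CON and in the 3 Med14 S983A conditions, stood at 4.25 CP10K in WT CON and at 3.01, 8.31 and 2.17 in CON, FSK and Ex-4 of Med14 S983A. Its FSK to CON ratio there was 2.76 (1.96 to 3.94).

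In muscle nuclei 4 of 7 members were lower in Med14 S983A than in WT, the treatments summed, against 28.3% of 1140 genes lower and 43.1% past 1.5-fold either way. *Col4a1* stood at 14.2 and 30.4 CP10K (ratio 0.469, 0.399 to 0.551), *Col4a2* at 14.1 and 22.1 (0.636, 0.534 to 0.759), *Col18a1* at 4.95 and 8.32 (0.594, 0.442 to 0.7997) and *Lamb1* at 3.74 and 5.95 (0.628, 0.444 to 0.891). The median log2 ratio of all genes was -0.25. The 5 muscle markers summed to 15.96, 4.549 and 11.06 CP10K in CON, FSK and Ex-4 of WT and to 24.21, 14.02 and 12.12 in Med14 S983A, but *Pdgfrb*, *Rgs5* and *Cspg4* had no count in any WT cell type. *Myh11*, the smooth muscle myosin, stood at 6.227, 3.515 and 6.523 CP10K in WT and at 1.463 and 1.264 in CON and FSK of Med14 S983A. The 6 beta markers summed to 4.281, 5.376 and 2.269 CP10K in these columns of WT and to 6.175, 3.333 and 7.477 in those of Med14 S983A. The part of these shifts in the members' differences was not tested.

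With FSK in muscle nuclei, both genotypes summed, *Col18a1* and *Lamb1* were higher and *Col27a1* and *Col15a1* lower, 4 of 8 members against 48.5% of 756 genes, a share near that of all genes. With Ex-4 *Col27a1* and *Col6a3* were lower, 2 of 8 against 17.2% of 495 genes. *Col18a1* in muscle nuclei stood, in CON, FSK and Ex-4, at 4.67, 12.2 and 5.67 CP10K in WT and at 5.36, 6.09 and 2.42 in Med14 S983A, so that WT FSK stood alone. The summed muscle markers of that column, 4.549 CP10K, were the lowest of the 6 muscle columns.

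**Figure D5:**
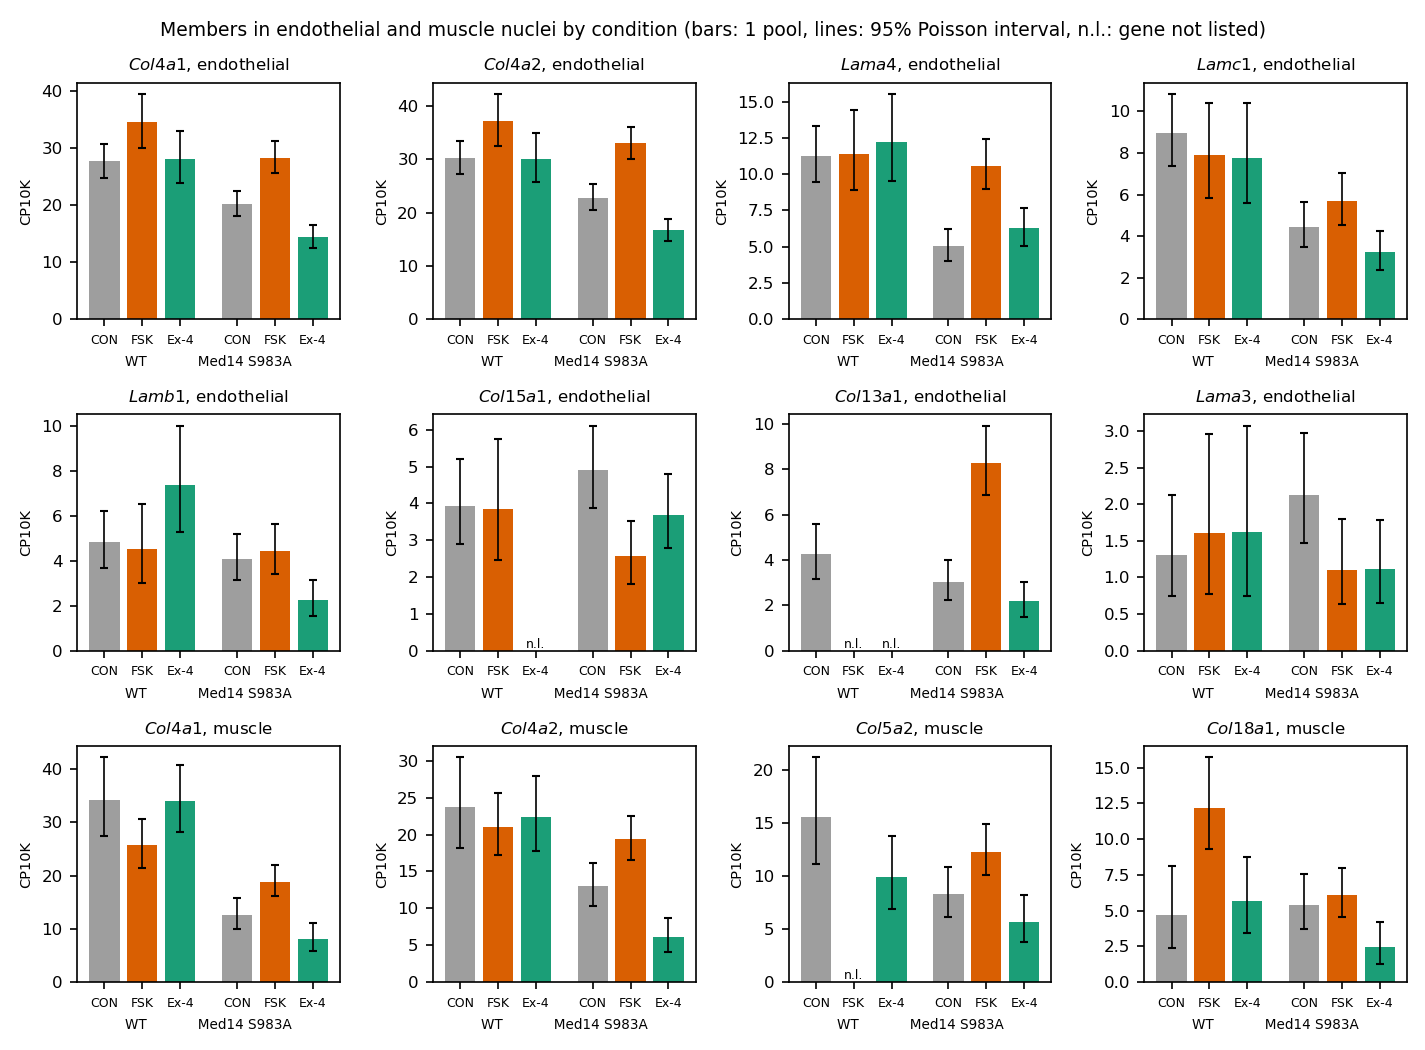
Level in CP10K (vertical axes, each from 0) of members in endothelial nuclei (upper 8 panels) and muscle nuclei (lower 4 panels), with 1 bar for each condition (grey CON, orange FSK, green Ex-4, WT on the left and Med14 S983A on the right), exact 95% Poisson intervals as lines and n.l. (not listed) where no cell type of that condition had a count. *Lamc1* in endothelial nuclei and *Col4a1* in muscle nuclei are lower in each Med14 S983A column than in any WT column.

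Other genes of the matrix were counted from lists of partners, receptors and enzymes. Of 6 basement membrane partners, 4 were highest in endothelial nuclei, among them *Hspg2* (perlecan) at 10.6 CP10K, *Sparc* at 6.19 and *Nid1* (nidogen, which bridges laminin and collagen IV) at 3.38. In endothelial nuclei none of the 4 compared was past 1.5-fold between the genotypes in CON, against 45.4% of 1088 genes. With FSK in Med14 S983A 2 of 5 were past it and higher there, against 35.3% of 1208 genes past it either way, *Sparc* 1.81-fold (1.36 to 2.42) and *Fn1* (fibronectin) 13.8-fold, from 12 counts to 150 (7.66 to 27.3). Of 13 matrix receptors, 9 had 50 counts, and 4 were highest in muscle nuclei. In beta nuclei 0 of 6 was past 1.5-fold with FSK in WT, against 33.7% of genes, and 5 of 7 in Med14 S983A, against 52.1% of genes, and the difference between the genotypes was not tested. In Med14 S983A *Itga6*, a laminin-binding integrin chain, was higher (1.97-fold, 1.67 to 2.33) and *Ddr1*, a collagen receptor, lower (0.584, 0.467 to 0.729). In beta CON columns 1 of 7 receptors was higher in Med14 S983A than in WT and 3 lower, against 46.8% of genes past 1.5-fold. The 3 lower ones, *Itga2*, *Itga6* and *Dag1*, were those higher with FSK in Med14 S983A. *Itga10* was higher in that CON comparison and lower with FSK. Both comparisons use the Med14 S983A CON column, so they are not independent.

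Of 26 enzymes that modify, fold or cross-link collagen chains, 13 could be compared in beta nuclei for Ex-4 in WT, and 7 were higher and 1 lower, against 38.6% of genes past the threshold either way. *P4hb*, a subunit of prolyl 4-hydroxylase, stood at 1.05 CP10K with Ex-4 and 0.674 in CON (1.56-fold, 1.30 to 1.87), and *Colgalt1*, which adds galactose to collagen, at 0.396 and 0.146 (2.71-fold, 1.90 to 3.92). In Med14 S983A 0 of 8 was past the threshold with Ex-4, where 5.8% of genes were. In beta CON columns 3 of 9 enzymes were higher in Med14 S983A than in WT and 2 lower, against 46.8% of genes past it. The 3 higher ones, *Plod3*, *Colgalt1* and *Loxl2*, were also among those higher with Ex-4 in WT. Both comparisons use the WT CON column, and the difference between the genotypes with Ex-4 was not tested. With FSK in beta nuclei 1 of 9 was higher (*P4hb*) and 5 lower in WT, against 33.7% of genes past the threshold, and 1 of 7 was higher and 4 lower in Med14 S983A, against 52.1%. *Colgalt1* was among the lower ones in both, at ratios of 0.398 (0.217 to 0.703) and 0.216 (0.116 to 0.378). Of 10 matrix proteases and inhibitors, 6 were in the table and 3 had 50 counts, led by *Timp3*, an inhibitor bound to the matrix, at 4.46 CP10K in muscle and 2.36 in endothelial nuclei.

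Summed over all members of a family, collagen levels were 74.7 CP10K in muscle, 61.3 in endothelial, 41.0 in nuclei labelled neurons, 17.3 in ductal, 7.75 in beta, 5.03 in delta, 3.69 in alpha, 2.79 in macrophage and 1.54 in PP nuclei. Laminin levels were 21.4 CP10K in endothelial, 15.6 in ductal, 11.4 in muscle, 7.37 in nuclei labelled neurons, 2.21 in alpha, 1.37 in PP, 0.959 in delta, 0.751 in beta and 0.656 in macrophage nuclei. Over conditions the collagen sum ran from 35.0 to 98.5 CP10K in muscle, 40.8 to 79.3 in endothelial nuclei and 13.9 to 131 in nuclei labelled neurons. The laminin sum ran from 14.3 to 30.6 in endothelial and 13.0 to 30.9 in ductal nuclei. These ranges overlap, so the order is loose. The beta sum of collagens ran from 6.53 to 8.97 CP10K over the 6 conditions, a narrower range than its main members showed. Without *Col6a6* it was 2.41 CP10K, and ran from 1.27 to 3.55.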

How the data were processed

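Single nucleus RNA-seq values were deposited as 1 table of natural log values, ln(1 + 10000 x count / total), per gene, condition and cell type. Per the study's methods the authors processed reads with split-pipe on mm39, filtered nuclei by counts, features and mitochondrial share, normalised with SCTransform, integrated with Harmony, annotated clusters by markers and downsampled to equal nuclei per condition. The sources used here do not say whether the counts are raw or SCTransform-corrected. Whole counts were recovered from the deposited natural log values, and 100% lay within 0.001 of a whole number. Column totals were 1522 to 3094377.

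All columns of a condition are 1 pool, so no test was run. Levels (CP10K) have exact Poisson, shares Clopper-Pearson and ratios exact conditional 95% intervals, for counting error only. Members with at least 200 counts, and the most counted member of each role, were named by cell type. Members with at least 50 counts in the columns compared and a ratio of at least 1.5-fold were named in a comparison, and other members were named after their values were seen. The members and lists were chosen with earlier results of these data known. Gene spans came from GENCODE M39 (GRCm39) and promoters from RefSeq. Protein sequences are not analysed here. Python 3.11.15, scipy 1.17.1, statsmodels 0.14.6 and matplotlib 3.10.9 were used, and the ratios were tested on simulated data. Other count minimums, thresholds, pseudocounts, scalings, a gene length trend and left-out conditions were tried. The values of 1 member are not reported here, though it is kept in the counts.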

Additional observations from a re-analysis of the deposited data

Results flagged for a closer look

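*Col27a1* moved in opposite directions with FSK in 2 endocrine cell types, in both genotypes. The log2 ratio of FSK to CON in beta nuclei was 2.45 in WT and 1.34 in Med14 S983A, and in delta nuclei it was -1.69 and -1.47. With 1 pool per condition the difference between the cell types was not tested.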

How the results depend on the processing

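Most limits here come from depth and from single pools. Of 191 counts of members under alternatives, 117 stayed within 1.5 times the reported count and 74 moved. Of 706 values for single ratios, 634 moved little, 70 moved and 2 reversed. Some of these values could not move, since the setting changes which genes are compared and not the ratio. They were 86 with a minimum of 20 counts and 18 with 200. Another 86 came from needing 1 count in each column and 86 from keeping genes absent from a condition. On the log2(CP10K + 1) scale, which can move a ratio, 52 stayed and 34 moved. The reversed ratio was that of *Col5a2* in muscle nuclei, Med14 S983A Ex-4 against WT Ex-4, with log2 0.17 when the median ratio of all genes was set to 0 and 0.12 when a trend on gene length was removed. No paired analysis was possible because each condition and cell type is 1 pooled column with no replicate.

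The highest cell type held for 13 of 30 members in WT CON alone and for 18 without ductal nuclei and nuclei labelled neurons. In what follows, counts for Ex-4 in either genotype and for mutant CON are against CON of the same genotype, or against WT CON for mutant CON, mutant stands for Med14 S983A, and FSK in endocrine nuclei counts members past the threshold in both genotypes.

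At a threshold of 2-fold the count was 1 for FSK in alpha nuclei, 2 for WT Ex-4 and 2 for mutant CON in beta nuclei, and 1 for mutant CON but 0 for Ex-4 in either genotype in delta nuclei. It was 0 for FSK and 0 for genotype in endothelial nuclei, and 1 for each in muscle nuclei. On the log2(CP10K + 1) scale it was 0 for FSK in alpha, 2 for FSK in beta, 1 for WT Ex-4 in alpha and 0 for mutant CON and for Ex-4 in either genotype in beta, WT Ex-4 and mutant CON in delta and FSK in endothelial nuclei. That scale shrinks ratios of low genes by construction.

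With a minimum of 20 counts it was 8 for FSK, 9 for WT Ex-4, 7 for mutant CON and 4 for mutant Ex-4 in beta nuclei, 2 for mutant Ex-4 in alpha and 2 for WT Ex-4 in delta nuclei, 1 for Ex-4 and 2 for FSK in endothelial nuclei, and 4 for Ex-4 and 8 for genotype in muscle nuclei. With a minimum of 200 counts it was 0 for FSK, 0 for WT Ex-4 and 1 for mutant CON in alpha nuclei, 2 for FSK, 2 for WT Ex-4, 2 for mutant CON and 0 for mutant Ex-4 in beta nuclei, 1 for FSK, 0 for WT Ex-4 and 0 for mutant CON in delta nuclei, 0 for FSK in endothelial nuclei, and 0 for Ex-4, 0 for FSK and 2 for genotype in muscle nuclei, since fewer members were compared.

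With only 1 count needed in each column it was 5, 11, 7 and 9 for FSK, mutant CON, WT Ex-4 and mutant Ex-4 in alpha, 11, 19, 14 and 9 in beta and 5, 8, 8 and 13 in delta nuclei, 3, 4 and 8 for Ex-4, FSK and genotype in endothelial and 9, 8 and 11 in muscle nuclei. With a pseudocount of 0.1 CP10K it was 3 for WT Ex-4 and 0 for mutant Ex-4 in beta, 1 for mutant CON in delta and 0 for FSK in endothelial nuclei. With genes absent from a condition kept it was 2 for Ex-4 and 2 for FSK in endothelial and 8 for genotype in muscle nuclei. With the median ratio set to 0 it was 2 for genotype in muscle nuclei. With the length trend removed it was 0 for WT Ex-4 in delta, 1 for genotype in endothelial and 2 for genotype in muscle nuclei.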
